A study of Mus musculus with 6 samples.

Results

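The genes described here are 10 that are used to gate or purify haematopoietic stem cells (HSCs): Kit, Flt3, Cd34, Slamf1, Cd48, Procr, Esam, Tek, Fgd5 and Ctnnal1. They were taken from a list by name and make up 10 of the 22180 genes with a transcript cluster of their own on the array. Of these, 8 products lie at the cell surface, whereas Fgd5 and Ctnnal1 encode proteins inside the cell whose genes carry the fluorescent reporters of HSC reporter mice. Their signals were read on 6 arrays of RNA from HSCs of unchallenged mouse bone marrow. The groups were wild type (WT; 3 arrays) and Chrm1-/- (3 arrays), and both carry the strain label C57Bl/6. Chrm1 encodes a muscarinic acetylcholine receptor, and the labels name neither a Cre driver nor a treatment for either group. The cells of both groups were sorted by flow cytometry as negative for lineage antigens, positive for Sca1 and cKit and negative for Flt3 protein. The series concerns the release of HSCs from the marrow and the part this receptor of the nervous system has in it by way of glucocorticoids.

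HSCs are rare, and antibodies to combinations of surface proteins separate them from the multipotent progenitors they give rise to. Kit is the receptor for stem cell factor and is carried by stem cells and progenitors alike, while Flt3 and CD34 proteins appear on mouse cells as they leave the most dormant state. The SLAM receptors divide the same cells another way, since long-term HSCs carry Slamf1 (CD150) and lack CD48, and Procr (EPCR), Esam and Tek (Tie2) are shared by HSCs and endothelium. The gate used here fixed Kit and Flt3 protein and left the SLAM receptors, Procr, CD34, Esam and Tek free, so the sorted population could hold cells with and without them. In a sorted population measured as bulk RNA, fewer cells of a type and less RNA per cell cannot be told apart.

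The values below turn mostly on Procr, Slamf1 and Cd48, so the stretch around a start site of each is shown, from 250 bases before to 50 bases after it, as RefSeq gives it for GRCm38.p6. Procr is at chr2:155750967-155751266, Slamf1 at chr1:171766882-171767181 and Cd48 at chr1:171681742-171682041, all on the plus strand. Capitals mark matches, on either strand and with no overlaps, to 3 short motifs. AGGAAG is a form of the site of ETS factors and reads CTTCCT from the other strand. RUNX factors bind TGTGGT. The E-box searched was CAGCTG.
Procr: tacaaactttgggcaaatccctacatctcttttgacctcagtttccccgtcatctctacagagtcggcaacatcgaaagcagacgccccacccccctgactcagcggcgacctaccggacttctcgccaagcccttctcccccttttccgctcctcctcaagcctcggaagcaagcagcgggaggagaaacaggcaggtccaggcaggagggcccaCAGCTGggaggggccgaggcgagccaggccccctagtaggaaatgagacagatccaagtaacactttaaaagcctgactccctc
Slamf1: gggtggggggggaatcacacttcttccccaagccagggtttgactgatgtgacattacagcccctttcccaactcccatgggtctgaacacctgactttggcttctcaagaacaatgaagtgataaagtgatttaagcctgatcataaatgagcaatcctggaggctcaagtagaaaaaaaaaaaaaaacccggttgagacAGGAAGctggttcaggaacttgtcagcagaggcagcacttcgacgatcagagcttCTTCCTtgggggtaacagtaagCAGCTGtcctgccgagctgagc
Cd48: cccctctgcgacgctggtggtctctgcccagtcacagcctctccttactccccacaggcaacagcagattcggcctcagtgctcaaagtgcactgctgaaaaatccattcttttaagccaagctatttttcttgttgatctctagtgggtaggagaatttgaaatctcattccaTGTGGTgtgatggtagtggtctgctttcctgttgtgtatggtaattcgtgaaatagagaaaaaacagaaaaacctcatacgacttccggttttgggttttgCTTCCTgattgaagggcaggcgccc
Slamf1 had 2 ETS matches and 1 E-box, Cd48 had 1 ETS and 1 RUNX match, and Procr had 1 E-box. Of all 32851 promoters of that length in the RefSeq table, 35.4% held the ETS form, 16.8% the RUNX form and 16.3% the E-box. A GATA factor site searched as GATAAG, which 7.44% of all promoters held, was found in Cd34 and Tek. The spaced palindrome ACANNNTGT of the glucocorticoid receptor, which 6.85% held, was found in none of the 9 genes with a promoter in the table. The Procr, Slamf1 and Cd48 stretches were 58.3%, 49.0% and 47.3% G or C, against a median of 52.7% over all promoters.

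None of the 10 genes passed an adjusted p of 0.05 in limma between the genotypes, and neither did any of the 11094 genes tested (0%). Genes were tested where their mean over the arrays reached 6.77 on the log2 scale, the median gene's value. Of the 10 genes, 9 were tested, and Esam lay below that level. Procr alone had an unadjusted p under 0.05, as did 2.99% of all genes tested, and Procr alone had 3 Chrm1-/- arrays that did not overlap the 3 WT arrays, as did 5.79% of all genes tested. Mean signals were higher in Chrm1-/- for 3 of the 9 and lower for 5, and the median difference, Chrm1-/- minus WT, was -0.02, beside 0.00 over all genes tested. Kit and Cd34 had narrow intervals around 0, Slamf1 and Tek wide ones, and Slamf1 and Cd48 had low readings on 2 of the 3 Chrm1-/- arrays.

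**Figure D1:**
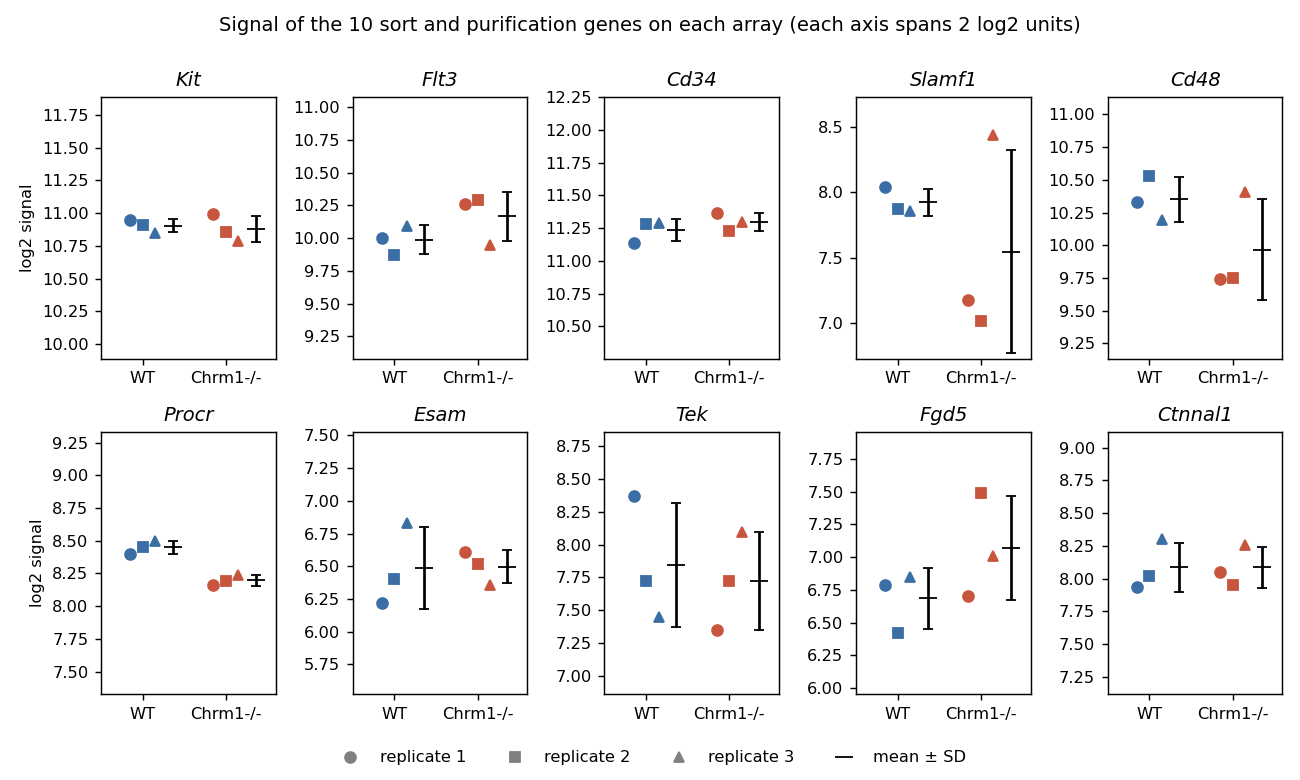
Log2 signal of each of the 10 genes on the 3 WT arrays (blue) and the 3 Chrm1-/- arrays (red), with marker shapes for the replicate and black bars for the mean ± SD of a group; every axis spans 2 log2 units. The Procr groups do not overlap, while Slamf1 reads 7.18, 7.02 and 8.44 on the Chrm1-/- arrays.

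The transcript cluster of Chrm1 read 7.45, 7.44 and 7.67 in WT and 8.16, 7.52 and 7.58 in Chrm1-/-; the part of the gene it covers is not given here, so it does not check the labels. The arrays shared a scale, with medians between 6.49 and 6.57, and their mean correlation with arrays of the same genotype lay between 0.918, for WT replicate 3, and 0.926. Over all clusters the genotypes thus did not separate, since correlations with the other genotype were between 0.923 and 0.929. A typical tested gene (the median) had a within-group SD of 0.22 and a standard error of 0.17 for its difference. Of the tested genes, 9.74% had the same value to 2 decimals on at least 3 arrays, and 0 of the 9 tested genes described here did. Nothing in the labels says whether replicates are separate mice. The p-values therefore measure only how these arrays scatter, which may be a technical spread.

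Kit, the receptor tyrosine kinase that defines the positive gate, was alike on all 6 arrays. It read 10.95, 10.91 and 10.85 on the WT arrays and 10.99, 10.86 and 10.79 on the Chrm1-/- arrays. The groups overlapped fully, and the difference was -0.02 ± 0.11 (SE), with a 95% interval from -0.28 to 0.24. On the linear scale that interval spans a ratio of Chrm1-/- to WT from 0.823 to 1.18. The adjusted p in limma was 0.996.

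Flt3, a related receptor tyrosine kinase whose protein defines the negative gate, gave a clear transcript signal in both groups. It read 10, 9.87 and 10.09 in WT and 10.26, 10.29 and 9.95 in Chrm1-/-. Chrm1-/- replicates 1 and 2 lay above all WT arrays, and replicate 3 lay among them. The difference was 0.18 ± 0.14 (SE), with a 95% interval from -0.15 to 0.51 and an adjusted p of 0.996 in limma.

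Slamf1, the CD150 receptor of long-term HSCs, was spread more widely in Chrm1-/- than in WT. The WT arrays read 8.04, 7.87 and 7.86, an SD of 0.10. The Chrm1-/- arrays read 7.18, 7.02 and 8.44, an SD of 0.78. Chrm1-/- replicates 1 and 2 were thus below every WT array and replicate 3 was above every one. The difference of -0.38 ± 0.38 (SE) had a 95% interval from -1.29 to 0.54, an adjusted p of 0.996 in limma and a two-sided exact permutation p of 0.4, where 3 arrays against 3 allow no value below 0.1. Chrm1-/- replicate 3 exceeded the mean of the other Chrm1-/- arrays by 1.34, a gap that 1.52% of tested genes matched or passed in either direction.

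Cd48, the SLAM receptor whose absence marks long-term HSCs, split the Chrm1-/- arrays the same way. It read 10.33, 10.53 and 10.19 in WT and 9.74, 9.75 and 10.41 in Chrm1-/-. Again replicates 1 and 2 of Chrm1-/- lay below all WT arrays, and replicate 3 lay within the WT range. The difference was -0.38 ± 0.22 (SE), with a 95% interval from -0.91 to 0.14 and an adjusted p of 0.996 in limma. The gap between Chrm1-/- replicate 3 and the mean of the other 2 was 0.67, which 9.47% of tested genes matched or passed.

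Leaving out each array in turn showed how far single arrays set these counts. Without Chrm1-/- replicate 3, Slamf1 differed by -0.82 ± 0.13 (SE) with an unadjusted p of 0.00143 in limma, and Cd48 by -0.61 ± 0.15 (SE) with an unadjusted p of 0.0087. The adjusted p of both was 1. In that fit 2 of 9 genes had an unadjusted p under 0.05, against 3.04% of all genes, and 4 of 9 (Slamf1, Cd48, Flt3 and Procr) had groups that did not overlap, against 13.5% of all genes. Leaving out any other array left 0 of the tested genes described here with a limma p under 0.05, unadjusted or adjusted. The labels give no reason to set Chrm1-/- replicate 3 aside, and its correlation with the other Chrm1-/- arrays over all clusters was 0.925, close to that of the remaining arrays.

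**Figure D2:**
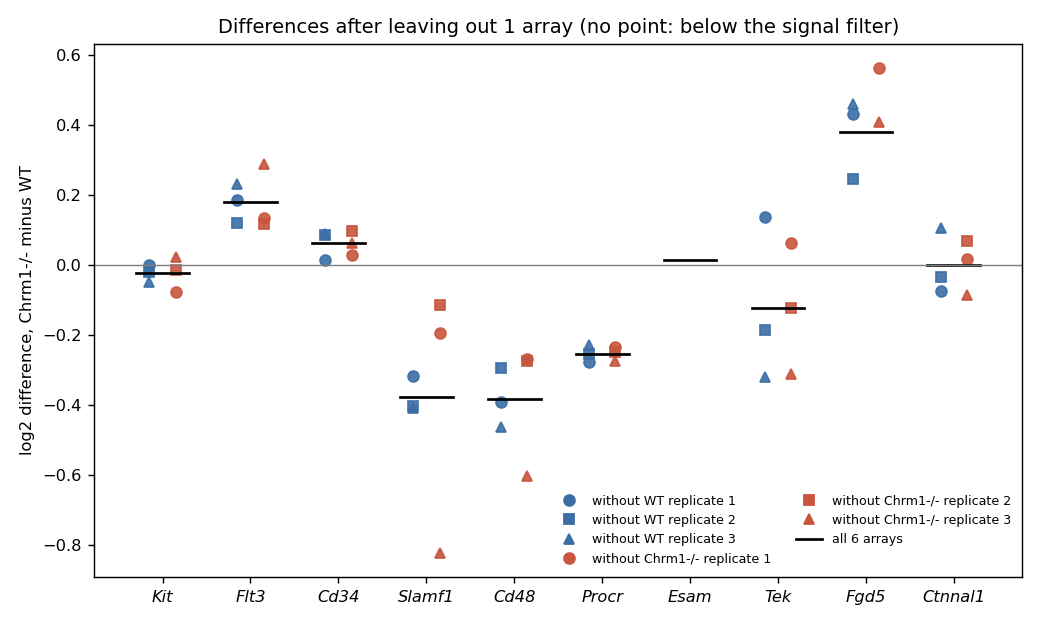
Log2 difference, Chrm1-/- minus WT, of each gene with all 6 arrays (black line) and after leaving out 1 WT array (blue) or 1 Chrm1-/- array (red), with marker shapes for the replicate left out; Esam, and Fgd5 without Chrm1-/- replicate 2, fell below the signal filter and have no point. Slamf1 moves from -0.38 to -0.82 without Chrm1-/- replicate 3, whereas Procr stays between -0.28 and -0.23.

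Cd48 and Flt3 mirrored each other across the arrays. The order of the arrays from high to low Cd48 was WT replicate 2, Chrm1-/- replicate 3, WT replicate 1, WT replicate 3, Chrm1-/- replicate 2 and Chrm1-/- replicate 1. From low to high Flt3 it was the same except that the last 2, which were 0.01 apart in Cd48 and 0.03 apart in Flt3, changed places. The Pearson correlation was -0.993 over the 6 arrays and -0.99 after the mean of each genotype was removed. Of 11092 tested genes compared with Cd48, Flt3 had the lowest correlation, ahead of Kdm3a at -0.984. Slamf1 correlated with Cd48 at 0.888 and with Flt3 at -0.863. These are 3 of 36 pairs among the 9 tested genes, chosen after their values were seen, and the 6 points share their arrays and their scaling.

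**Figure D3:**
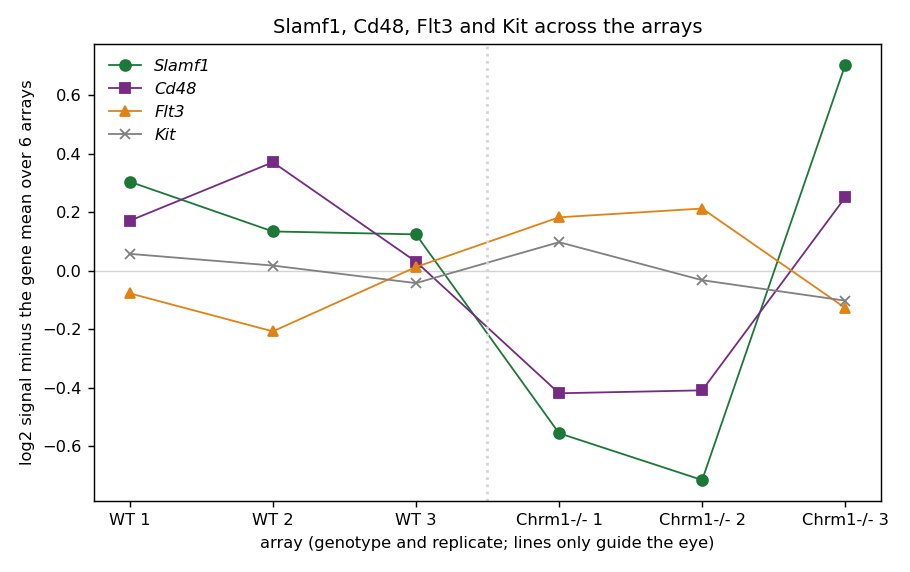
Log2 signal of Slamf1, Cd48, Flt3 and Kit on each of the 6 arrays, less the mean of the gene over all 6; lines join the points of a gene only to guide the eye. Slamf1 and Cd48 are low and Flt3 high on Chrm1-/- replicates 1 and 2, while Kit stays near 0.

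Cd48 and Slamf1 lie near each other in the SLAM receptor cluster of chromosome 1, and the other genes of the cluster were read for the same split of the Chrm1-/- arrays. Slamf7 read 6.97, 8.24 and 7.94 in WT and 9.12, 8.21 and 7.82 in Chrm1-/-, so that Chrm1-/- replicate 3 was the lowest of its group. Ly9 read 7.94, 8.50 and 9.11 in WT and 8.42, 8.43 and 8.71 in Chrm1-/-. Its Chrm1-/- arrays also formed a low pair with a higher replicate 3, by 0.285, but all 3 lay within the WT range. F11r, which lies near the cluster, read 8.34, 8.59 and 8.81 in WT and 8.44, 8.52 and 9.18 in Chrm1-/-. Its replicate 3 exceeded the mean of Chrm1-/- replicates 1 and 2 by 0.70, but those replicates lay within the WT range. For Alyref2, beside F11r, that gap was -0.375. Cd84 lay between 9.72 and 10.34 in WT and between 9.89 and 10.22 in Chrm1-/-. Cd244a, the receptor that binds CD48 protein, read 8.69, 8.91 and 8.67 in WT and 8.26, 9.27 and 8.27 in Chrm1-/-. The high reading of Cd244a in Chrm1-/- was in replicate 2 and not in replicate 3. Of the 10 further SLAM receptor and adaptor genes on the array 6 were tested, with a median difference of 0.06. By limma 0 of them had a p under 0.05, unadjusted or adjusted. Slamf9 and Slamf8 differed by 0.65 and -0.31. Slamf6, below the signal needed for testing, read 5.93, 6.30 and 5.98 in WT and 5.74, 5.84 and 5.86 in Chrm1-/-, so that its groups did not overlap. With no filter on dim genes, the same held for 5.39% of all genes.

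**Figure D4:**
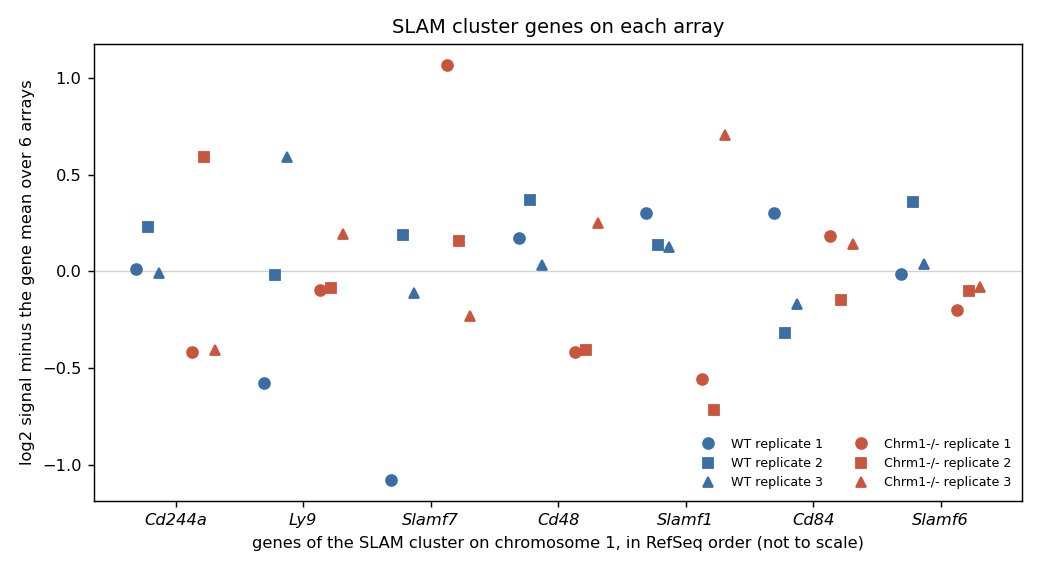
Log2 signal of 7 SLAM cluster genes, in their RefSeq order on chromosome 1, on the WT arrays (blue) and the Chrm1-/- arrays (red), less the mean of each gene over the 6 arrays. The low pair and the high replicate 3 of Slamf1 and Cd48 in Chrm1-/- have no counterpart in Slamf7, Cd244a or Cd84, while Ly9 has a low pair and a higher replicate 3 within its WT range.

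Procr, the endothelial protein C receptor used to enrich HSCs, gave the only separated groups among the 10 genes. It read 8.40, 8.45 and 8.50 on the WT arrays and 8.16, 8.19 and 8.24 on the Chrm1-/- arrays. Every Chrm1-/- array lay below every WT array, by at least 0.16. The difference was small, -0.25 ± 0.10 (SE), a ratio of 0.839, with a 95% interval from -0.49 to -0.02. The unadjusted p was 0.0393 and the adjusted p 0.996 in limma, and the two-sided exact permutation p was 0.1, the smallest that 3 arrays against 3 can give. The within-group SD of Procr, 0.05, was among the lowest, with 2.17% of tested genes at or below it, while 22.9% of tested genes had a difference at least as large in either direction. How the variance was moderated thus set the unadjusted p in limma, which was 0.00241 without moderation and 0.113 with an intensity trend and robust moderation. The sign was negative without any 1 of the 6 arrays, and the unadjusted p then ran from 0.0517 to 0.0873.

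The 3 tested genes below followed Procr most closely over the 6 arrays. They were Prkce, a protein kinase C, with a Pearson correlation of 0.987, the mitochondrial GTPase gene Rhot2 with 0.955, and Timm23, of the mitochondrial import channel, with 0.952. Prkce read 7.66, 7.78 and 7.78 in WT and 7.41, 7.41 and 7.52 in Chrm1-/-. With 6 arrays and all tested genes to choose from, correlations of this size describe these arrays only.

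The tested partners of Procr on the coagulation side differed by -0.14 to 0.08, apart from F2rl2. Procr binds activated protein C, which acts through thrombin receptors, and 6 of the 12 genes of that list on the array were tested. Of these, 4 had a higher and 2 a lower mean in Chrm1-/-, and their median difference was 0.07. F2r, the main thrombin receptor, read 8.37, 8.73 and 8.70 in WT and 8.54, 9.02 and 8.49 in Chrm1-/-. Thbd, encoding thrombomodulin, read 6.93 on 5 arrays and 7.11 on Chrm1-/- replicate 2. F2rl2, a thrombin receptor family member, had the one unadjusted p under 0.05 of the 6, beside 2.99% of all genes tested, at 7.16, 7.45 and 7.21 in WT and 8.98, 8.65 and 7.57 in Chrm1-/-. Its difference of 1.13 had an adjusted p of 0.996 in limma, and Chrm1-/- replicate 3 was closest to WT. The mean of the 12 genes stood at 6.88, 6.95 and 6.93 in WT and at 7.10, 7.07 and 6.96 in Chrm1-/-, with no overlap. Without F2rl2, a step chosen after its values were seen, the groups overlapped, since the highest WT array stood at 6.904 and the lowest Chrm1-/- array at 6.903.

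Cd34, a sialomucin of progenitors and endothelium, was as even as Kit. It read 11.14, 11.28 and 11.29 in WT and 11.37, 11.23 and 11.30 in Chrm1-/-. The groups overlapped, and the difference was 0.06 ± 0.11 (SE), with a 95% interval from -0.19 to 0.32. A second transcript cluster that the platform annotation shares between Cd34 and a predicted gene was left out; its means were 7.45 in WT and 7.60 in Chrm1-/-.

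Tek, the angiopoietin receptor Tie2 linked to HSC quiescence, varied within both groups. The WT arrays read 8.37, 7.72 and 7.45, and the Chrm1-/- arrays 7.35, 7.72 and 8.10. The highest array was a WT one and the lowest a Chrm1-/- one, with the rest interleaved. The difference of -0.12 ± 0.30 (SE) had a 95% interval from -0.84 to 0.59, and it turned to 0.14 without WT replicate 1 and to 0.06 without Chrm1-/- replicate 1. Angpt1, which encodes the activating ligand of Tek, read 11.87, 11.75 and 11.71 in WT and 11.78, 11.76 and 11.76 in Chrm1-/-, a far tighter range. Tie1, the partner receptor of Tek, differed by -0.10 ± 0.14 (SE). Of 6 tested genes of the Tek list 0 had a limma p under 0.05, unadjusted or adjusted. Their median difference was -0.02. The groups did not overlap for 1 of the 6, Itgb1, beside 5.79% of all genes tested. Itgb1 read 11.12, 10.96 and 10.75 in WT and 11.18, 11.13 and 11.18 in Chrm1-/-.

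Esam, an adhesion molecule of tight junctions that is shared by HSCs and endothelium, was below the signal needed for testing. It read 6.22, 6.40 and 6.83 in WT and 6.61, 6.52 and 6.36 in Chrm1-/-. In the fit with no filter on dim genes its difference was 0.01 ± 0.17 (SE), with a 95% interval from -0.41 to 0.44. Endothelial cells also carry Procr, Esam, Tek and Fgd5, and their markers were given the same look. Of 19 endothelial markers on the array 10 were tested, and 0 had a limma p under 0.05, unadjusted or adjusted. Mean signals were higher in Chrm1-/- for 8 of the 10 and lower for 2, with a median difference of 0.06. The mean of the 19 ran from 7.02 to 7.15 over the WT arrays and from 7.04 to 7.17 over the Chrm1-/- arrays. Cdh5, encoding VE-cadherin, read between 7.30 and 7.38 in WT and between 7.08 and 7.38 in Chrm1-/-, and Kdr, a receptor for vascular growth factor, between 6.30 and 6.46 on all 6 arrays. Pecam1, which HSCs share with endothelium, differed by 0.22 ± 0.17 (SE).

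Fgd5, a guanine nucleotide exchange factor whose locus drives an HSC reporter, read 6.79, 6.42 and 6.85 in WT and 6.70, 7.49 and 7.01 in Chrm1-/-. The groups overlapped through Chrm1-/- replicate 1. The difference of 0.38 ± 0.23 (SE) had a 95% interval from -0.19 to 0.95, and it was 0.56 ± 0.22 (SE) without Chrm1-/- replicate 1, with an unadjusted p of 0.0506 in limma. Without Chrm1-/- replicate 2, its highest array, Fgd5 no longer reached the signal filter.

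Ctnnal1, the catenin-like gene of the other HSC reporter, had equal means of 8.09 in both groups. It read 7.94, 8.02 and 8.30 in WT and 8.05, 7.95 and 8.26 in Chrm1-/-. The 95% interval of the difference ran from -0.36 to 0.36. WT replicate 3 and Chrm1-/- replicate 3 were the highest of their groups.

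**Figure D5:**
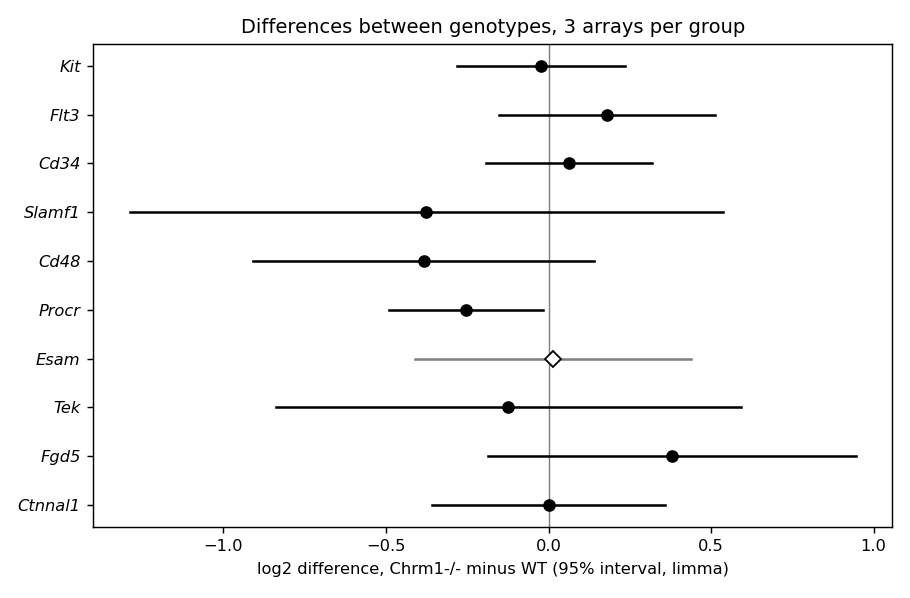
Log2 difference, Chrm1-/- minus WT, of each gene with its 95% interval from limma, 3 arrays per group; the open diamond and grey line for Esam come from the fit with no filter on dim genes. The interval of Procr, from -0.49 to -0.02, is the one that leaves out 0.

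Some genes listed for the pathway of the gated receptors had groups that were apart. The list was chosen with earlier results of these data known, so its counts are a description and no test of the pathway. Kit and Flt3 signal through shared adaptors, phosphatases and STAT proteins, and of 24 such genes on the array 20 were tested, 12 with a higher and 8 with a lower mean in Chrm1-/-. Of these, 2 had an unadjusted p under 0.05, beside 2.99% of all genes tested, and 0 passed the adjusted threshold in limma. The groups did not overlap for 4 of the 20, beside 5.79% of all genes tested. Inpp5d, the lipid phosphatase SHIP that limits Kit signalling, read 9.63, 9.61 and 9.61 in WT and 9.92, 10.09 and 10.04 in Chrm1-/-. Its difference was 0.40 ± 0.10 (SE), with an adjusted p of 0.996 in limma. Sh2b3, the adaptor Lnk, read 7.40, 7.43 and 7.50 in WT and 8.30, 8.08 and 7.94 in Chrm1-/-. Stat5a, a transcription factor activated by both receptors, read 8.15, 8.46 and 8.50 in WT and 8.84, 8.64 and 8.64 in Chrm1-/-. Cbl, a ubiquitin ligase that sends activated Kit to degradation, was separated the other way, at 9.53, 9.74 and 9.52 against 9.41, 9.42 and 8.94. Kitl, the gene of stem cell factor, which stromal cells make, lay between 5.53 and 5.83 on all 6 arrays and was not tested.

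Other genes that have been used to purify or report HSCs were spread around no change. Of 33 on the array 29 were tested, 14 with a higher and 15 with a lower mean in Chrm1-/-, and their median difference was -0.003. Alcam, an adhesion molecule, and Itga2, the integrin chain CD49b that divides HSC subsets, had an unadjusted p under 0.05, which is 2 of 29 beside 2.99% of all genes tested, and 0 passed the adjusted threshold in limma. The groups did not overlap for 3 of the 29 (Alcam, Itga2 and Rarb), beside 5.79% of all genes tested. Alcam read 9.09, 9.17 and 9.07 in WT and 9.60, 9.66 and 9.50 in Chrm1-/-, a difference of 0.48 ± 0.10 (SE). Itga2 read 7.17, 6.99 and 6.52 in WT and 7.60, 8.31 and 7.20 in Chrm1-/-, a difference of 0.81 ± 0.32 (SE), and the nearest arrays of the groups were 7.17 and 7.20. Robo4, a guidance receptor of HSCs and endothelium, differed by 0.33 ± 0.15 (SE), and Rarb, a retinoic acid receptor, by -0.29 ± 0.14 (SE). Thy1, which HSCs carry at low level, differed by 0.11 ± 0.19 (SE), Cd27 by -0.10 ± 0.16 (SE) and the megakaryocyte and stem cell integrin gene Itga2b by -0.04 ± 0.13 (SE). Vwf, of platelet-biased HSCs, read between 7.16 and 7.30 in WT and between 7.08 and 7.43 in Chrm1-/-.

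Markers of cells that the gate is meant to remove or could retain were set beside these genes. Of 15 lineage antigens on the array 2, Cd5 and Cd8b1, reached the signal filter, and the mean of the 15 ran from 6.00 to 6.22 in WT and from 6.01 to 6.29 in Chrm1-/-. Lymphoid-primed progenitors carry Flt3 and CD48 protein, and the mean of 10 of their markers ran from 7.31 to 7.45 in WT and stood at 7.67, 7.45 and 7.35 on the Chrm1-/- arrays. Chrm1-/- replicate 3, lowest of its group in Flt3, was the lowest of its group there, and Chrm1-/- replicate 1 was the highest. Flt3 itself was highest on Chrm1-/- replicate 2, at 10.29. The WT arrays stood at 7.45, 7.39 and 7.31, where Il7r alone read 8.13, 7.62 and 5.99. WT replicate 3 thus had the lowest mean of all 6 arrays and the highest Flt3 reading of WT, 10.09. That low mean leans on the Il7r reading of 5.99, so whether the WT arrays follow Flt3 cannot be read from the list mean. Of the 6 tested, 2 had a higher and 3 a lower mean in Chrm1-/-, and the median difference was -0.02. The higher ones were Cd52 and Dntt, whereas Il7r, Notch1 and Ly6d differed by -0.03, -0.09 and -0.29 and Satb1 had equal means. Cd52, which differed by 0.76, alone of the 6 had an unadjusted p under 0.05 in limma, beside 2.99% of all genes tested. It alone had groups that did not overlap, beside 5.79% of all genes tested, and its adjusted p in limma was 0.996. Cd52 read 8.20, 8.27 and 7.92 in WT and 9.02, 8.80 and 8.86 in Chrm1-/-, and Dntt, the terminal transferase of early lymphoid cells, 10.17, 9.81 and 9.88 and 10.32, 10.11 and 10.26. The mean of 8 mast cell and basophil markers stood at 7.16, 6.70 and 6.30 on the Chrm1-/- arrays and ran from 6.80 to 7.06 in WT, so that Chrm1-/- replicate 3 was the lowest of all 6. Of these 8 markers 6 were below the signal filter. Among those, Gzmb read 6.95, 6.50 and 7.82 in WT and 6.18, 5.85 and 5.89 in Chrm1-/-. Its groups did not overlap, as for 5.39% of all genes with no filter. Ms4a2 differed by -0.48, and only Fcer1a of those 6 had a higher mean in Chrm1-/-, by 0.16. The basophil protease gene Mcpt8 read 10.56, 9.33 and 6.72 on the Chrm1-/- arrays, whereas Cpa3, a mast cell protease gene, was highest of that group on replicate 3, at 11.41. Without Mcpt8, again chosen after its values were seen, the mean on Chrm1-/- replicate 3 was still the lowest, at 6.24 beside 6.32 on replicate 2. Chrm1-/- replicate 1 then stood at 6.67, and the WT arrays lay between 6.58 and 6.70. Granulocyte precursor markers, 11 in number, ran from 7.38 to 7.48 in WT and from 7.23 to 7.45 in Chrm1-/-, and 12 erythroid and megakaryocyte markers from 8.34 to 8.47 and from 8.32 to 8.42. Of 7 tested granulocyte genes 2 had a higher and 5 a lower mean in Chrm1-/-, among them Ctsg, which differed by -0.44. Of 10 tested erythroid and megakaryocyte genes 6 had a higher and 4 a lower mean, with a median difference of 0.03. The platelet gene Pf4 differed most, by -0.88, at 9.54, 9.46 and 9.33 in WT and 8.20, 9.44 and 8.06 in Chrm1-/-, where replicate 2 lay within the WT range. The part of these cell types in the Slamf1, Cd48 and Flt3 readings was not tested. The mean of 10 housekeeping genes ran from 10.69 to 10.79 in WT and from 10.72 to 10.75 in Chrm1-/-.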

How the data were processed

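Each sample is bulk RNA of sorted HSCs, amplified with a NuGEN kit and hybridised to an Affymetrix mouse gene ST array, per the series design text, which names the Affymetrix analysis software. How it summarized and normalized the arrays, and its version, were not given in the sources used here. Values in the deposited table, between 3.02 and 13.67, were read as log2 signals because of that range, and no further normalization was applied. The number of arrays limits the precision.

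The platform annotation gave 1 gene symbol for 23521 of 41345 transcript clusters, and these were kept. Per gene, the cluster of highest mean over the 6 arrays was used, giving 22180 genes. All 10 members had 1 such cluster. limma 3.58.1 in R 4.3.3 (lmFit, eBayes, two-sided, Benjamini-Hochberg) compared Chrm1-/- with WT over 11094 genes at or above the median signal. Standard errors are moderated. Differences are Chrm1-/- minus WT. Alternatives covered the filter, normalization, several clusters of a gene, moderation, weights per array, a block for the replicate number and leaving out each array.

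The members and gene lists were chosen with earlier results of these data known. The text names the 10 members, up to 4 genes of smallest unadjusted p per list, a fixed set of ligands, receptors and markers, and the 3 genes most correlated with each member of unadjusted p under 0.05. Some further genes, among them Gzmb, Slamf6, Ly9 and F11r, are named outside that rule. Listed genes without a cluster of their own, Flt3l among them, were not analysed here. The fit was tested on simulated data. Python 3.11.15 with pandas 2.3.3 and matplotlib 3.10.9 joined tables and drew plots. Promoters come from the RefSeq table of GRCm38.p6; motifs were searched on both strands.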

Additional observations from a re-analysis of the deposited data

How the results depend on the processing

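Of 79 differences of the 10 genes under alternatives other than leaving out an array, 0 changed sign, and of 53 with 1 array left out, 3 did. Ctnnal1, at exactly 0 with all arrays, has no sign to change and is counted as unchanged; it ran from -0.0867 to 0.1067. The changes were Kit, at 0.022 without Chrm1-/- replicate 3 (range -0.078 to 0.022), and Tek (range -0.32 to 0.14), at 0.14 without WT replicate 1 and 0.063 without Chrm1-/- replicate 1. None of the 10 genes passed an adjusted p of 0.05 in limma under any alternative run. The count at an unadjusted p under 0.05 in limma went from 1 (Procr) to 0 with quantile normalization, and to 0 with an intensity trend and robust moderation, and ran from 0 to 2 with 1 array left out, 2 being Slamf1 and Cd48 without Chrm1-/- replicate 3. The count of separated groups ran from 1 to 4 with 1 array left out; it was 2 without Chrm1-/- replicate 1 or 2, where 15.8% and 14.5% of all genes were separated, and 4 without replicate 3, where 13.5% were. With the replicate number as a block the count of the 10 genes was 0 and of all genes 396; same-numbered arrays did not deviate together (correlations -0.03, 0.01 and -0.01), so the numbers were not read as pairs. Over all genes, 567 had an unadjusted p under 0.05 with no filter and 169 above the 75th percentile, as more or fewer genes were tested, against 332, and 337 to 521 with 1 array left out, the highest without WT replicate 3. The count past the adjusted threshold was 1 without moderation (Apmap), and 0 to 1 with 1 array left out, being Gdpd3 without WT replicate 1 and Snord49a without Chrm1-/- replicate 3. With 3 arrays per group the median standard error of 0.17 limits what could be called.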
